A study of Mus musculus with 6 samples.

Results

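The chemokine Cxcl12, its receptors Cxcr4 and Ackr3, and Dpp4, the membrane peptidase that trims the chemokine, were followed in mouse cardiosphere-derived cells (CDCs) with and without induction by 5-azacytidine. The 4 genes were chosen by name, and each matched 1 of the 54532 genes in the deposited count table. Cxcl12, Ackr3 and Dpp4 were among the 14246 genes with enough reads to be tested, and Cxcr4 was not. In induced cells Cxcl12 was 3.67-fold lower, Dpp4 was 5.89-fold higher, and Ackr3 did not pass the test.

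The cells were CDCs of C57BL/6 mice, labelled as heart ventricle, that had been immortalized by lentiviral transfer of human telomerase and selected with puromycin (called iCDCs in the labels). All 6 libraries came from passage 30, so the telomerase transgene was shared by both groups. The 3 induced libraries came from cells given 10 µM 5-azacytidine for 3 days and then kept for 4 weeks in IMDM with 2% FBS, and the 3 control libraries came from cells without the drug. The methods of the study give a different medium and a shorter culture for the same induction, and they describe the expansion medium of these cells, richer in serum, without tying it to the control libraries. The effects of the drug, the serum and the time in culture cannot be told apart. The labels speak of separate samples and do not say whether these were separate cultures. The methods name biological replicates, but fewer per condition than the 3 libraries used here. The p-values therefore measure only the spread between these samples, which may be technical.

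CXCL12, also called stromal cell-derived factor, is made by mesenchymal cells and draws blood progenitors, lymphocytes and endothelial cells that carry its receptors. CXCR4 passes the signal on through inhibitory G proteins, whereas ACKR3 (formerly CXCR7) couples to arrestins and removes the chemokine from the medium. DPP4 (CD26) cuts the first dipeptide from CXCL12, and the shortened chemokine no longer activates CXCR4. In the infarcted heart this pathway is known for recruiting cells to the injury, and inhibition of DPP4 preserves the intact chemokine.

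5-Azacytidine is built into DNA and traps the methyltransferase that copies methylation at CG dinucleotides. The 250 bases before the RefSeq start of each gene (GRCm38.p6) are therefore shown, each 5′ to 3′ on the strand of its gene with CG dinucleotides in capitals. They are the plus strand of chr6:117168285-117168534 for Cxcl12, the minus strand of chr1:128592300-128592549 for Cxcr4, the plus strand of chr1:90203730-90203979 for Ackr3 and the minus strand of chr2:62412232-62412481 for Dpp4.
Cxcl12: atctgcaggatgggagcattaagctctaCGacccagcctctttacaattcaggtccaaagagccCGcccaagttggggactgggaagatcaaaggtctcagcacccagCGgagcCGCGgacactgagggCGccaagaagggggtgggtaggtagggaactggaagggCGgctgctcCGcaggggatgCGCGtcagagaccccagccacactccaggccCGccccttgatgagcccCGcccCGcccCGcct
Cxcr4: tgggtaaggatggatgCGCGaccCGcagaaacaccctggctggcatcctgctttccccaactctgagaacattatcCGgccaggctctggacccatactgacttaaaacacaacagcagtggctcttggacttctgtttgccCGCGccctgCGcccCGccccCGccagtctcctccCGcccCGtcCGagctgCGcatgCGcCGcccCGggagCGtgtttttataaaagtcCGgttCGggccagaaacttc
Ackr3: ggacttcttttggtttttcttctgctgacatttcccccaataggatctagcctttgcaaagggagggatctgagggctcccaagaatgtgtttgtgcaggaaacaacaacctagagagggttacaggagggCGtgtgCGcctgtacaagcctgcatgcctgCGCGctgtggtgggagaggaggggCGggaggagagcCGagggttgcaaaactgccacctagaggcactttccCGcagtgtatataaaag
Dpp4: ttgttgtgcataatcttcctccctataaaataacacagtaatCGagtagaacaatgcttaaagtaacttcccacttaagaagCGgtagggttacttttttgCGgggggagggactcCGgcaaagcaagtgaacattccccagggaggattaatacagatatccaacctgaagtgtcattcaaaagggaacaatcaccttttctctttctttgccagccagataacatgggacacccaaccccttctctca
All 4 genes were found in the RefSeq table. The Cxcl12 window held 14 CG dinucleotides with a GC content of 64.4%, and the Cxcr4 window held 19 with a GC content of 61.2%. The Ackr3 window held 7 and the Dpp4 window 4, with a GC content of 54.0% and 43.6%. Among 32851 windows of this length the median was 6, and 29.4% held at least as many as Cxcl12, 19.7% as Cxcr4, 46.3% as Ackr3 and 62.2% as Dpp4. Methylation itself was not measured in these libraries.

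The windows also differed in short motifs, searched on both strands. The GC box GGGCGG matched 5 times before Cxcl12, 3 times before Cxcr4, 1 time before Ackr3 and 0 times before Dpp4, and 32.7% of all windows hold it. The TATA box letters TATAAA matched before Cxcr4, Ackr3 and Dpp4 but not before Cxcl12, and 12.4% of all windows hold them. The interferon response core (GAAA and GAAA with any 2 bases between) matched 1 time before Dpp4, against 2.98% of all windows, and 0 times before the other genes. The hypoxia core ACGTG, held by 16.6% of windows, matched in none of the 4. A match describes the letters and does not show a site in use.

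**Figure D1:**
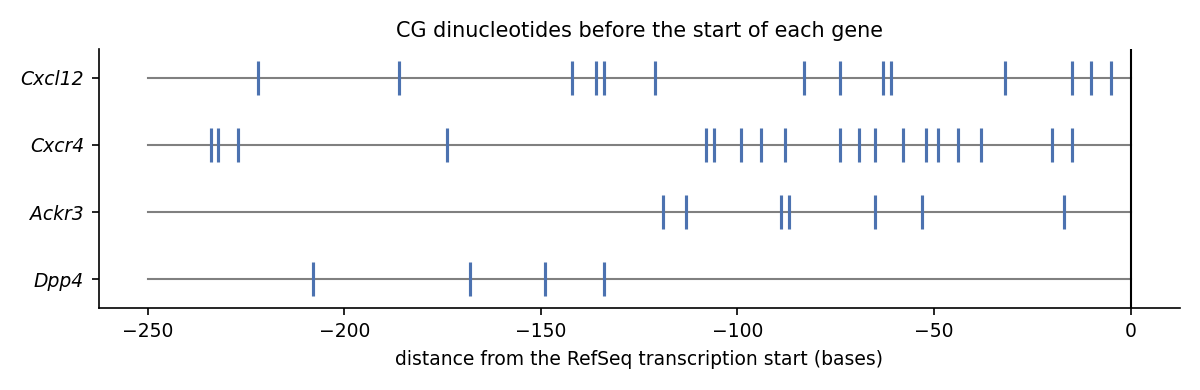
Each line is the 250 bases before the RefSeq start of 1 gene, the x axis gives the distance from the start in bases, and each tick is 1 CG dinucleotide. Cxcr4 has 19 ticks and Cxcl12 14, whereas Ackr3 has 7 and Dpp4 has 4, the latter between -208 and -134.

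Libraries held 19041133 to 19823369 reads counted in genes, which leaves out reads not assigned to a gene. The 2 groups separated strongly: of 14246 genes tested, 64.8% passed an adjusted p of 0.05 (quasi-likelihood F-test of edgeR, p-values adjusted by the Benjamini-Hochberg method), 32.6% as higher and 32.2% as lower in induced cells, and the groups did not overlap for 68.6%. Levels are given as CPM, the usual scaling of read counts to library size, adjusted by the trimmed mean of M-values (TMM). A value after ± is the SD over the 3 libraries of a group (n = 3). Levels of named genes are set against each other per kilobase of the gene length in the deposited table, and ranks by reads or CPM, which favour long genes, are named as such. Bulk libraries cannot tell fewer cells of a type from less RNA per cell.

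Cxcl12 (ENSMUSG00000061353, chromosome 6, 117168535 to 117181367, plus strand) was the most abundant of these genes. Its reads numbered 110192, 107958 and 109370 in the control libraries and 27778, 28613 and 29305 in the induced libraries. On the CPM scale the control libraries had 5584, 5502 and 5479 and the induced libraries 1476, 1505 and 1536. All control libraries were above all induced libraries, and libraries of 1 group lay close together. Groups without overlap were common, at 68.6% of all genes tested. The mean level fell from 5521 ± 55.3 CPM (SD, n = 3) to 1506 ± 29.8 CPM (SD, n = 3). The log2 fold change was -1.87 with an SE of 0.04, a 95% interval of -1.95 to -1.80 and an edgeR adjusted p of 1.67e-17.

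In control cells 0.552% to 0.567% of all reads counted in genes belonged to Cxcl12, and it was the gene of rank 7 by reads in each control library. In induced cells the share was 0.145% to 0.151% and the rank 52 to 56. Ranked per kilobase, it stood at 53 to 59 among 19591 to 19758 detected genes of the control libraries, and at 251 to 284 among 20130 to 20501 of the induced libraries. It thus stayed at a percentile of 98.6 to 98.8 of the detected genes in the induced libraries. In CPM its mean fell by 4016, which was the decrease of rank 2 among all genes, after the translation factor Eef1a1, which fell by 4263 CPM. Of the 104 genes with at least 1000 CPM in control cells, only the acute phase gene Saa3 had a lower log2 ratio of mean levels (-2.12) than Cxcl12 (-1.87). Among all genes tested 7.03% had a fold change of larger size. The table counts reads per gene, so the 3 coding forms that GENCODE M21 lists for Cxcl12 were not separated.

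Cxcr4 (ENSMUSG00000045382, chromosome 1, 128588199 to 128592293, minus strand), the signalling receptor, had 0 reads in each of the 6 libraries. A count of 0 allows up to 3 reads, which corresponds to 0.150 to 0.153 CPM in the control libraries and 0.157 to 0.159 CPM in the induced libraries. No difference was detectable at this depth, and this limit covers counting error only. The exons of Cxcr4 share no bases with another gene in GENCODE M21. Its upstream window, printed above, held the most CG dinucleotides of the 4.

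Ackr3 (ENSMUSG00000044337, chromosome 1, 90203980 to 90216751, plus strand), the scavenging receptor, was the receptor that was detected. It had 191, 158 and 132 reads in the control libraries and 142, 143 and 127 in the induced libraries. These were 9.68, 8.05 and 6.61 CPM against 7.55, 7.52 and 6.66 CPM. The groups overlapped, and the control libraries were spread more widely than the induced ones. The control mean was 8.11 ± 1.53 CPM and the induced mean 7.24 ± 0.507 CPM (SD, n = 3). The log2 fold change was -0.16, with an SE of 0.14 and an edgeR adjusted p of 0.326. Its 95% interval of -0.46 to 0.14 leaves room for a moderate decrease, so that equal levels are not shown. Of the genes tested, 75.2% had a fold change of larger size.

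Per kilobase, Ackr3 was at least 22.9-fold to 34.4-fold higher than Cxcr4 within each library, with Cxcr4 set at its limit of 3 reads. Cxcl12 was 236-fold to 339-fold above Ackr3 in control libraries and 80.1-fold to 94.5-fold above it in induced libraries. The ligand was therefore far more abundant than either receptor in both groups, and its excess over Ackr3 was smaller in every induced library than in any control library.

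Dpp4 (ENSMUSG00000035000, chromosome 2, 62330073 to 62412231, minus strand), the peptidase, changed in the direction opposite to Cxcl12. It had 49, 45 and 39 reads in the control libraries and 231, 266 and 257 in the induced libraries. These were 2.48, 2.29 and 1.95 CPM in control cells against 12.3, 14.0 and 13.5 CPM in induced cells. The groups did not overlap, as for 68.6% of all genes tested, and the lowest induced library was far above the highest control library. The mean rose from 2.24 ± 0.268 to 13.2 ± 0.879 CPM (SD, n = 3). The log2 fold change was 2.56 with an SE of 0.14, a 95% interval of 2.26 to 2.86 and an edgeR adjusted p of 1.62e-11, and 3.70% of the genes tested had a fold change of larger size. In GENCODE M21, 3.67% of the exon bases of Dpp4 are shared with 1 other gene.

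By mean level per kilobase Cxcl12 was highest and Cxcr4 lowest in both groups, and the gap between Ackr3 and Dpp4 was smaller in induced cells. In control cells Cxcl12 (675 ± 6.77 CPM per kilobase) stood above Ackr3 (2.42 ± 0.458), which stood above Dpp4 (0.355 ± 0.0424), with Cxcr4 below its limit of 0.0846 (SD, n = 3). In induced cells Cxcl12 was at 184 ± 3.65, while Ackr3 at 2.16 ± 0.151 and Dpp4 at 2.10 ± 0.139 did not differ beyond their spread (SD, n = 3). Dpp4 was at 0.136 to 0.157 times the level of Ackr3 in control libraries and at 0.862 to 1.07 times in induced libraries.

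**Figure D2:**
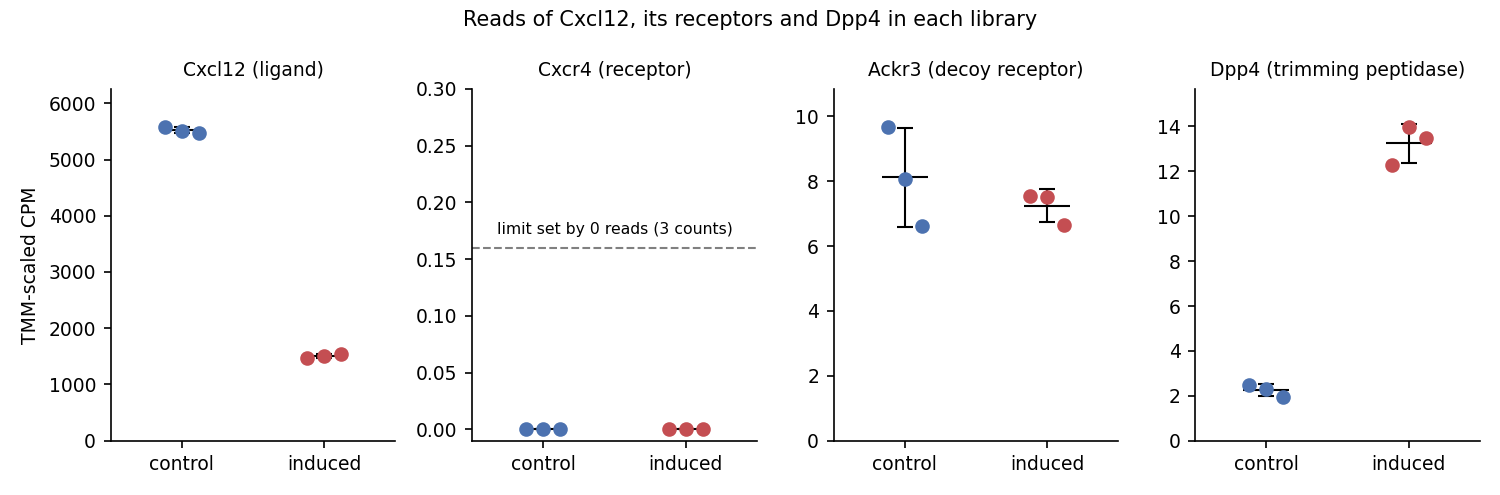
Each panel plots 1 gene, with TMM-scaled CPM on the y axis, a point for each library and a bar for the mean ± SD of 3 libraries. Cxcl12 lies at 5479 to 5584 CPM in control and 1476 to 1536 CPM in induced libraries, Cxcr4 has 0 reads under a dashed limit of 0.159 CPM, the Ackr3 groups overlap, and Dpp4 lies at 1.95 to 2.48 CPM in control and 12.3 to 14.0 CPM in induced libraries.

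The ratio of Cxcl12 to Dpp4 per kilobase was taken within each library, where scaling between libraries has no part. It was 1721, 1834 and 2140 in the control libraries and 92.7, 83.0 and 88.0 in the induced libraries. Every control library was above every induced library, which follows from the separation of both genes described above. On the log2 scale the mean was 10.88 ± 0.16 in control and 6.46 ± 0.08 in induced cells (SD, n = 3), a difference of -4.43. The exact permutation test (two-sided) gave p = 0.1, the smallest that 3 libraries against 3 allow. The ratio restates the opposite changes of both genes, so this p was bound to its floor and adds no separate support.

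Of the 3 tested genes 2 passed the threshold, a share near the 64.8% of all genes tested.

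**Figure D3:**
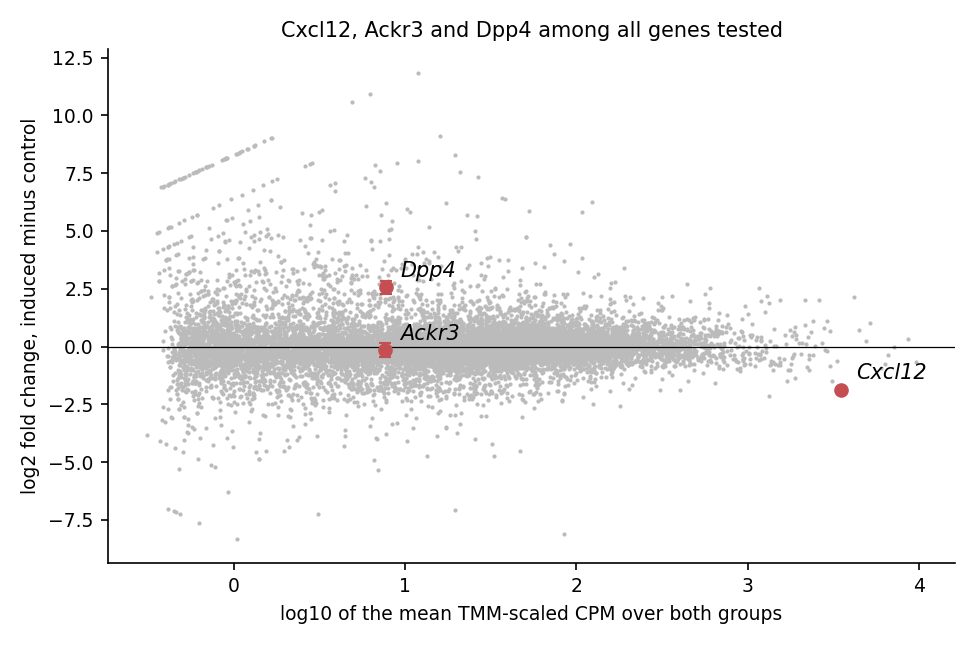
Grey points are the 14246 genes tested, with the log10 of the mean CPM on the x axis and the log2 fold change (induced minus control) on the y axis, and bars on the red points are 95% intervals. Cxcl12 (-1.87) lies at the abundant end below most genes of its level, Dpp4 (2.56) lies above and Ackr3 (-0.16) within the main cloud.

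Genes whose profile over the 6 libraries was nearest to each member were found among 13023 tested genes with at least 1 CPM, by the root mean square difference of centred log2 CPM. Nearest to Cxcl12 were BC030867 (0.0345), Uhrf1 (0.0355) and Serpina3g (0.0384), with log2 fold changes of -1.90, -1.92 and -1.91. Uhrf1 guides the methyltransferase Dnmt1 to newly copied DNA and fell from 84.8 ± 1.01 to 22.4 ± 0.953 CPM (SD, n = 3). Serpina3g belongs to a family of near-identical serpins, so its count is uncertain. Nearest to Dpp4 were Endod1 (0.0821), Hdgfl3 (0.0891) and Ogn (0.0947), with log2 fold changes of 2.42, 2.43 and 2.67. Ogn encodes osteoglycin, a small proteoglycan of the matrix, and rose from 12.8 ± 1.09 to 81.0 ± 2.29 CPM (SD, n = 3). Nearest to Ackr3 were A930004D18Rik (0.0671), Mios (0.0731) and Spata5l1 (0.0752), with log2 fold changes of -0.11, -0.17 and -0.17 that did not pass the test. With 2 groups of 3 libraries, nearness mostly reflects the difference between the groups.

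The other ligands and receptors that meet this axis came from a list of 7 genes. Of 5 tested, 2 rose and 1 fell (median log2 fold change 0.17, against -0.01 over all genes tested), and the called share was near the 64.8% of all genes tested. Adm, which encodes adrenomedullin, a vasodilator that ACKR3 also removes, rose from 67.8 ± 1.01 to 136 ± 0.751 CPM, a log2 fold change of 1.00 (edgeR adjusted p 3.46e-12). Cd74, a receptor for the cytokine MIF, rose from 1.86 ± 0.239 to 3.94 ± 0.423 CPM. Hmgb1, a nuclear protein that forms a complex with CXCL12 when released, fell from 67.0 ± 5.70 to 49.6 ± 3.25 CPM.

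Mif itself, a ligand of CXCR4, ACKR3 and CD74, was at 636 ± 22.2 CPM without and 694 ± 64.3 CPM with induction, with overlapping groups and an edgeR adjusted p of 0.0608. It was called in 4 of 15 alternatives, among them DESeq2 (adjusted p 0.0452) and the fit without induced replicate 2 (log2 fold change 0.21 in place of 0.13, adjusted p 2.6e-05). Per kilobase its level was 854 in control cells, near the 675 of Cxcl12, and 932 in induced cells, where Cxcl12 stood at 184. This comparison depends on the lengths used, 745 bases for Mif and 8176 for Cxcl12, the latter covering the exons of 4 transcripts. In CPM, Cxcl12 was above Mif in both groups, at 5521 in control and 1506 in induced cells. Mif and Hmgb1 have near-identical copies elsewhere in the genome, and their counts are uncertain. Cxcl14, a chemokine of epithelia and stroma, had a log2 fold change of 0.17 (edgeR adjusted p 0.477). Cxcl11, the other chemokine that binds ACKR3, and its receptor Cxcr3 had 0 reads in all 6 libraries, although 41.7% of the exon bases of Cxcl11 are shared with another gene.

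Besides Dpp4, other proteases are known to cut CXCL12, and 10 of them were listed. All 5 that could be tested rose (median log2 fold change 0.72), against 32.6% of genes tested. Mmp3 (stromelysin), the most abundant, rose from 1337 ± 35.1 to 2208 ± 122 CPM, a log2 fold change of 0.72 (edgeR adjusted p 7.78e-11). Mmp14, a membrane-bound matrix protease that activates Mmp2, rose from 893 ± 24.8 to 1188 ± 26.5 CPM. The gelatinase Mmp2 rose by 0.28 and the collagenase Mmp13 by 1.02 on the log2 scale.

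Cpm, a carboxypeptidase that takes the last residue of CXCL12, rose from 0.539 ± 0.123 to 1.37 ± 0.425 CPM with an edgeR adjusted p of 0.00342. The proteases typical of blood cells were at or near the floor. Summed over the libraries of a group, reads without and with induction numbered 0 and 0 for Ctsg, 2 and 4 for Elane, and 4 and 7 for Mmp9. They numbered 2 and 1 for Mmp1a, and 0 and 7 for the plasma carboxypeptidase Cpn1. These 5 genes were not tested.

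Dpp4 belongs to the prolyl oligopeptidase family. Of 7 tested relatives, 1 rose and 4 fell, against 32.6% and 32.2% of all genes tested (median log2 fold change -0.49), and Dpp10 had 0 reads. The difference between Dpp4 and these genes was not tested. Fap, the closest relative and a marker of activated fibroblasts, fell from 2.63 ± 0.0864 to 1.18 ± 0.0292 CPM, a log2 fold change of -1.16 (edgeR adjusted p 0.000302). Dpp6, a channel-binding member without peptidase activity, fell from 2.09 ± 0.377 to 0.510 ± 0.136 CPM.

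The cytosolic peptidases Dpp9 and Prep had log2 fold changes of -0.61 and -0.49, and Dpp8 of 0.20. The call of Dpp8 was lost without control replicate 2 (log2 fold change 0.17, edgeR adjusted p 0.0520). Prepl and Apeh, at 26.3 ± 1.37 and 79.3 ± 7.27 CPM in induced cells, had overlapping groups and log2 fold changes of -0.04 and -0.07. Per kilobase, Dpp4 stood below Fap in control cells (0.355 against 0.464) and above it in induced cells (2.10 against 0.208).

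Heparan sulfate chains hold secreted CXCL12 at the cell surface and in the matrix. Of 23 tested genes for its core proteins and enzymes, 14 rose, 4 fell and 5 did not pass the test (median log2 fold change 0.30), against 64.8% called among all genes tested. The secreted core protein perlecan (Hspg2) rose from 997 ± 29.6 to 1230 ± 49.4 CPM. The glypican Gpc3 rose by 2.02 on the log2 scale. Sulf1, a secreted enzyme that removes sulfate from heparan chains, rose from a mean of 68.0 to 246 CPM, a log2 fold change of 1.85 with an SE of 0.05 (edgeR adjusted p 1.23e-15). The syndecan Sdc3 fell from 478 ± 5.02 to 265 ± 7.52 CPM, and Sdc4 had a log2 fold change of 0.10 (edgeR adjusted p 0.0592). Sdc4 passed the test in 3 of 15 alternatives, with DESeq2, with its size factors and without induced replicate 2 (adjusted p 0.0063 to 0.0405).

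Receptor kinases, arrestins and sorting proteins silence the receptors and send them to degradation. Of 11 tested genes, 4 rose, 5 fell and 2 did not pass the test, against 64.8% called among all genes tested (median log2 fold change -0.10). The kinase Grk5 rose from 35.3 ± 0.789 to 91.6 ± 2.33 CPM, a log2 fold change of 1.37 (edgeR adjusted p 1.00e-13), while Grk2 had a log2 fold change of 0.02 (edgeR adjusted p 0.756). Rgs16, which speeds the shut-off of G proteins, fell from 32.1 ± 4.81 to 15.8 ± 0.980 CPM. Usp8, an enzyme that removes ubiquitin from sorted receptors, rose by 0.13 on the log2 scale, and this call was lost in 7 of 15 alternatives, without control replicate 1, 2 or 3 among them (adjusted p 0.0514 to 0.119).

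Grk3, singled out after its values were seen, had 72 reads without and 2 with induction. The log2 fold change was -4.87, with a 95% interval of -6.29 to -3.45 and an edgeR adjusted p of 4.50e-06. With reads pooled over the libraries of a group, the control level was 34.5 times the induced level. Its exact 95% binomial interval of 9.22 to 291 covers counting error only, while libraries of 1 group differed by more than that. Grk3 is a receptor kinase known to act on CXCR4. Hgs, a sorting protein of every cell, had 0 reads in all 6 libraries. The table lists Hgs under 2 identifiers, and 99.6% of the exon bases of 1 are shared with another gene, so this 0 says nothing of its level. Rgs1 also had 0 reads.

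Downstream of CXCR4, 27 genes for G proteins and effectors were tested, of which 5 rose, 12 fell and 10 did not pass (median log2 fold change -0.08), a called share near the 64.8% of all genes. The inhibitory G protein Gnai2, the most abundant of its kind in the list, was at a mean of 594 and 561 CPM, a log2 fold change of -0.08 with an SE of 0.05 (edgeR adjusted p 0.128). Its relative Gnai1 rose from 16.7 ± 0.372 to 42.5 ± 0.488 CPM. The kinase subunit Pik3cb, which G proteins activate, rose by 1.62 on the log2 scale. Cfl1, which cuts actin filaments, had a log2 fold change of -0.37, and the kinase Mapk3 of -0.08 (edgeR adjusted p 0.179). Gnai2 and Mapk3 passed as lower in 2 of 15 alternatives each, with totals as the only scaling (adjusted p 0.0215 and 0.0428) and without induced replicate 1 (adjusted p 0.0497 and 0.0498). Most of this machinery was therefore present in both groups although Cxcr4 was not detected.

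Of 8 tested transcription factors known to act on Cxcl12 or Cxcr4, 1 rose, 5 fell and 2 did not pass the test (median log2 fold change -0.16), where 32.6% of all genes tested rose and 32.2% fell. Epas1, a factor of the hypoxia response, rose from 11.1 ± 0.448 to 82.7 ± 3.60 CPM, a log2 fold change of 2.90 (edgeR adjusted p 6.42e-17). Its paralogue Hif1a, the other oxygen-sensed subunit, was at 438 ± 6.89 and 441 ± 45.4 CPM (edgeR adjusted p 0.885). Cebpb, which binds the Cxcl12 promoter in stromal cells, had a log2 fold change of -0.34. Rela, a subunit of NF-kB, had a log2 fold change of -0.16 (edgeR adjusted p 0.0119), and its call was lost when 1 of 3 libraries, control 1, control 3 or induced 3, was left out (edgeR adjusted p 0.0517 to 0.0730). It was also lost with limma on log2(FPKM + 0.1) (adjusted p 0.0765) and at an adjusted p of 0.01.

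CXCL12 is also the hallmark of stromal niche cells in bone marrow. All 10 tested genes of such cells passed the test, 6 higher and 4 lower (median log2 fold change 0.39), against 64.8% called over all genes. Spp1 (osteopontin) fell from 318 ± 3.00 to 123 ± 6.41 CPM and the adhesion molecule Vcam1 from 652 ± 14.7 to 322 ± 9.55 CPM. The growth factor Csf1 rose from 983 ± 5.79 to 1299 ± 15.8 CPM and Bmp4 from 54.0 ± 2.74 to 169 ± 3.12 CPM. Niche genes thus moved in both directions beside the fall of Cxcl12. Lepr and Il7 had too few reads to be tested. Of the exon bases of Rgs16, Prepl, Egfl7, Hdgfl3, Csf1r, Cfl1, Spp1, Tbx18 and Cebpb, 10.1% to 20.7% are shared with at least 1 other gene. Reads may therefore be missing from their counts.

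**Figure D4:**
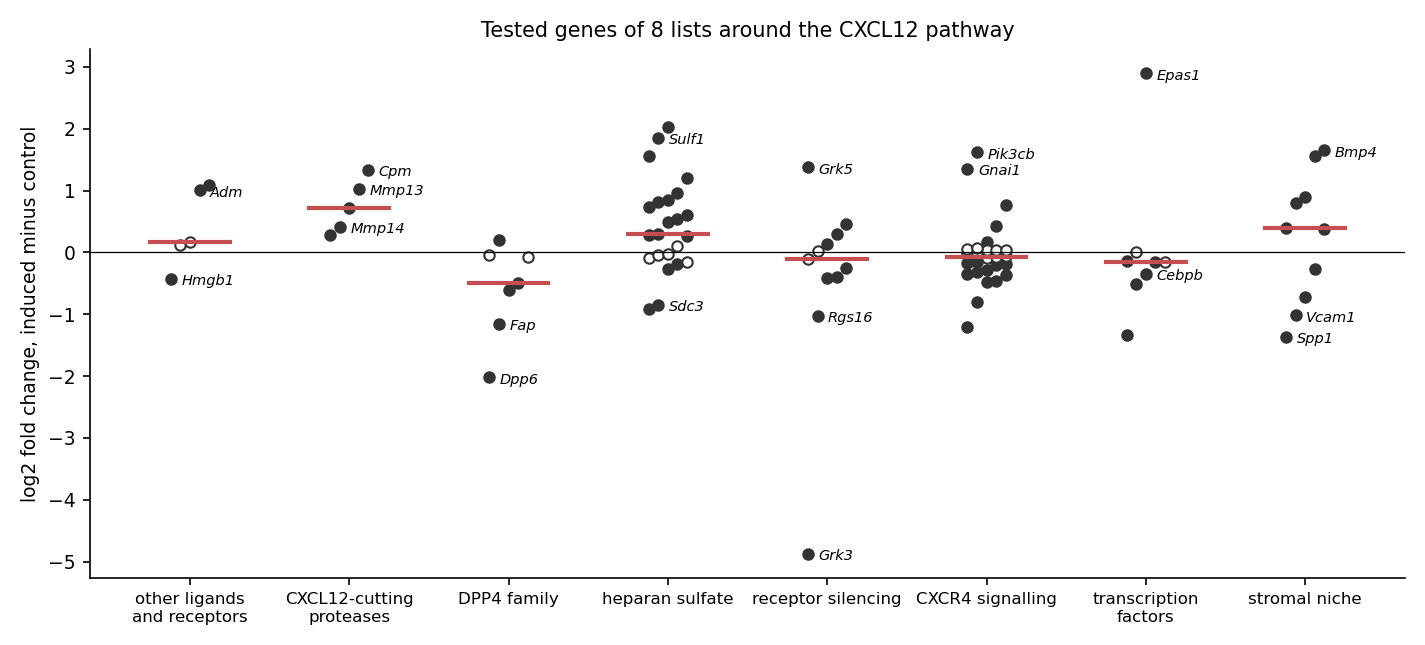
The y axis gives the log2 fold change (induced minus control) of each tested gene in 8 lists named along the x axis. Filled points passed an adjusted p of 0.05, open points did not, and red lines are medians, from -0.49 for the DPP4 family to 0.72 for proteases that cut CXCL12.

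Markers of other cell types that could carry these genes were listed with their sums, and their calls are to be read against the 64.8% of all genes tested that were called, 32.6% as higher and 32.2% as lower. Leukocytes are the main carriers of CXCR4 and also carry DPP4. The leukocyte markers Ptprc, Cd52, Tyrobp, Itgam, Cd3e and Adgre1 had 0 reads in all 6 libraries, although 68.7% of the exon bases of Itgam and 14.5% of those of Cd52 are shared with another gene. The sum of the 10 markers was 23.6 to 26.0 CPM in control and 36.4 to 42.8 CPM in induced libraries, most of it from Csf1r and Cd68. Cd68, a lysosomal protein, rose from 1.95 ± 0.217 to 29.2 ± 2.77 CPM and Csf1r fell from 22.6 ± 1.05 to 10.9 ± 0.673 CPM.

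Endothelial cells carry CXCR4 and ACKR3, and their 10 markers summed to 9.82 to 11.4 CPM in control and 13.2 to 13.8 CPM in induced libraries. Tie1 and Cldn5 had 0 reads in both groups. Reads without and with induction numbered 1 and 1 for Cdh5, 3 and 6 for Pecam1, 11 and 5 for Kdr and 1 and 0 for Emcn. They numbered 7 and 32 for both Tek and Esam, and these 8 genes were not tested. Of 2 tested, 1 rose, against 32.6% of all genes. Egfl7 rose from 8.63 ± 0.564 to 11.1 ± 0.453 CPM and held most of the sum. Vwf had a log2 fold change of -0.37 (edgeR adjusted p 0.345). The 7 mural cell markers summed to 75.3 to 83.1 CPM in control and 34.2 to 36.6 CPM in induced libraries, with 1 of 4 tested higher and 3 lower, against 64.8% called over all genes. The channel subunits Kcnj8 and Abcc9 and the receptor Notch3 fell by 2.69, 2.79 and 1.34 on the log2 scale, and the smooth muscle myosin Myh11 rose by 2.79. Cspg4, Rgs5 and Higd1b were not tested, with 5 and 26, 2 and 8, and 0 and 1 reads without and with induction.

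CDCs are mesenchymal cells of the heart, and the methods name epicardium explants as their source. Markers of both kinds were present in both groups. All 8 fibroblast markers were tested and called, 6 as higher and 2 as lower, against 64.8% called over all genes, with sums of 15674 to 16394 CPM in control and 17553 to 18778 CPM in induced libraries. All 8 epicardial and mesothelial markers were called as well, 5 higher and 3 lower, and their sum was 406 to 418 CPM in control and 1254 to 1409 CPM in induced libraries. Upk3b, Wt1, Tcf21, Msln and Krt8 rose, and Msln went from 28.1 ± 2.81 to 226 ± 11.7 CPM. Tbx18 and Krt19 fell by 0.33 and 1.24 on the log2 scale, and Aldh1a2 fell from 2.12 ± 0.702 to 0.369 ± 0.103 CPM. The part of these shifts in cell markers in the fall of Cxcl12 and the rise of Dpp4 was not tested.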

How the data were processed

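RNA sequencing of total RNA from 3 control and 3 induced libraries was used. The authors deposited raw read counts per gene and FPKM values in one table. The submitters' processing notes list HISAT2 2.0.5, featureCounts 1.5.0-p3, DESeq2 1.16.1 and mm10, and the study names DESeq. The strand setting is not given in the sources used here, and reads of genes that share exon bases may be lost in counting. Of the genes in the table, 54409 were found in GENCODE M21, 98.3% with the same coordinates. The deposited FPKM values equal counts per gene length and depth, with a depth of 0.980 to 1.03 times the total. Gene lengths in bases are those of the deposited table. Fold changes and p-values of the authors and their Gene Ontology tables were not used.

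The edgeR package (4.0.16, under R 4.3.3) was applied to the counts. The filterByExpr function, with a minimum count of 10 and a minimum total of 15, left 14246 genes. These were scaled by TMM and compared by the quasi-likelihood test (two-sided, prior count 0.125), and p-values were adjusted over all of them by the Benjamini-Hochberg method. SEs and 95% intervals were derived from the F statistic. Counts were simulated for this comparison with these 14246 genes, of which 100 were changed by 1 and 100 by 2 on the log2 scale. Of these, 88% and 97% were recovered. Far more genes were called in the data, so the recovery there may differ. Same-group libraries differed by more than sampling noise (chi-square per degree of freedom 2.56 to 8.91) and none were merged. A count of 0 was read as up to 3 reads. As alternatives, the analysis was repeated with DESeq2 (1.42.0), with its size factors in edgeR, with totals as the only scaling, without the filter, with a stricter filter, with limma 3.58.1 on log2(FPKM + 1) and log2(FPKM + 0.1), with an adjusted p of 0.01, with a replicate block and without each library in turn.

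The members, the 13 gene lists and the tests were chosen with earlier results of these data known. Named were the 4 members, every gene of the lists of axis ligands and receptors, CXCL12-cutting proteases and DPP4 relatives, the 3 most abundant per length and the 2 of smallest p in each other pathway list, and the 3 nearest profiles per tested member. Marker lists are given by counts, sums and defining genes. A planned ratio of Cxcr4 to Ackr3 was not computed, since with 0 reads it would hold only the added 0.5.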

Additional observations from a re-analysis of the deposited data

How the results depend on the processing

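Cxcl12 and Dpp4 kept their direction and their call, and Ackr3 stayed uncalled, in all 15 alternatives. The log2 fold change of Cxcl12 ranged from -1.91 to -1.86 and that of Ackr3 from -0.29 to -0.01, with adjusted p of 0.0916 to 0.946. That of Dpp4 ranged from 1.19 to 2.64, and its lowest value came from limma on log2(FPKM + 1), where the added 1 shrinks the change of a low gene. Cxcr4 had 0 reads and gave no value in any alternative. The log2 ratio of Cxcl12 to Dpp4 ranged from -4.50 to -4.34, with an exact p of 0.1 to 0.25. The smallest p is 0.1 for 3 against 2 and 0.25 for the paired test, so none could pass 0.05. Between 7783 and 9765 genes were called over all genes tested, against 9225. Of the lists, only the count of endothelial markers moved by over 1.5 times, from 1 to 3 under DESeq2 and with no filter, and to between 1 and 2 when a library was left out. More genes entered the test without the filter, and for the other changes the cause was not tested. Of 719 values of 48 other named genes, 25 crossed the threshold, and 0 reversed with a call in the main fit or the alternative. Grk2, Hif1a, Apeh and Prepl, with log2 fold changes near 0, changed sign in some alternatives without a call in either.

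Same-numbered libraries shared no deviation from their group means over the genes tested, with correlations of 0.01, -0.01 and 0.03. These values cannot show whether the cultures were paired. With the replicate block, the call of Usp8 was lost (adjusted p 0.0556) and no other named gene changed its call. Reads limit the low genes most: Dpp4 rests on 133 reads in control cells and Ackr3 on 481, against 327520 for Cxcl12.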
